A study of Mus musculus with 2 samples.

Results

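Among mouse leukaemia cells that carried a control guide, a minority held many transcripts of Ctss, Wfdc17, Lgals3, Lsp1 and Slfn2, genes that are switched on as myeloid cells mature. These high-score cells are described here. A cell's score was the sum of its UMIs (unique molecular identifiers, tags that mark single RNA molecules) for the 5 genes, divided by all its UMIs and given as CPM (counts per 1000000 UMIs). The members were the 10% of kept control cells with the highest score, which gave 60 of 608 kept control cells, out of 1183 kept cells in the series. They are set against the remaining 548 control cells.

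The series holds 2 libraries of mouse leukaemia cells driven by the MLL-AF9 fusion oncoprotein and expressing the nuclease Cas9. The Jumonji library came from cells with a guide RNA against the part of Jmjd1c that encodes its Jumonji domain, the catalytic fold of this histone demethylase. The Renilla library, which holds the 60 members, came from cells with a guide against Renilla luciferase, a sequence that the mouse genome lacks. Both cultures grew in RPMI medium with 10 ng/ml mouse interleukin-3 (IL-3), so every cell compared here shares the fusion, Cas9 and the cytokine. The labels give neither the number of primary leukaemias nor the time after guide delivery. With 1 library per condition no difference has a replicate check, and the intervals below are 95% intervals that cover counting error only.

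Myeloid progenitors of the bone marrow first fill primary (azurophil) granules with myeloperoxidase and the serine proteases elastase, proteinase 3 and cathepsin G. As they mature along the monocyte or neutrophil path they stop making these proteins, leave the cell cycle and take up adhesion receptors, lysosomal proteases and inhibitory receptors. MLL-AF9 blocks this course and keeps cells dividing at the progenitor stage. The 5 scoring genes have different roles in mature cells. Ctss encodes the lysosomal protease cathepsin S, Lgals3 the sugar-binding protein galectin-3, and Lsp1 an actin-binding protein of leukocytes. Wfdc17 encodes a small secreted protein of macrophages, and Slfn2 a schlafen protein linked to quiescence in mouse lymphocytes and monocytes.

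The members were slightly shallower than the remaining cells. They had 4648 to 39066 UMIs each (median 21138), against 4387 to 55220 (median 23948) in the remaining cells. The median number of genes was 3990 in members and 4355 in the remaining cells, and the median mitochondrial share was 3.24% and 3.44%. In sum the members held 1260946 UMIs and the remaining cells 13157797. No barcode occurred in both libraries. Scrublet, a doublet caller, marked 1 of 60 members and 9 of 548 remaining cells, and these cells were kept.

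The score chose the members, so the levels of its 5 genes are a description. The score ran from 197 to 2179 CPM among members, with a median of 275. Among the remaining cells it ran from 0 to 191, with a median of 36.2. These values stand on few molecules, since a member had 1 to 48 scoring-gene UMIs (median 7) and a remaining cell 0 to 8 (median 1). In 218 kept cells, or 35.9%, none of the 5 genes had a UMI.

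No gap separated members from the other cells. The 3 lowest members had scores of 196.5, 205.8 and 209.0 CPM, and the 3 highest cells outside had 190.9, 187.0 and 186.8. The lowest member had 4 scoring-gene UMIs of 20354, a share whose exact Poisson interval runs from 53.5 to 503 CPM. The score intervals of 46 members reached down to the limit, and those of 357 remaining cells reached up to it. Within a factor of 1.5 of the limit lay 32 members above it and 44 remaining cells below it. Only 13 members scored above 500 CPM and 6 above 1000. When each cell was thinned to 10000 UMIs before scoring, 39 of the 57 cells then chosen were members (68.4%).

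**Figure D1:**
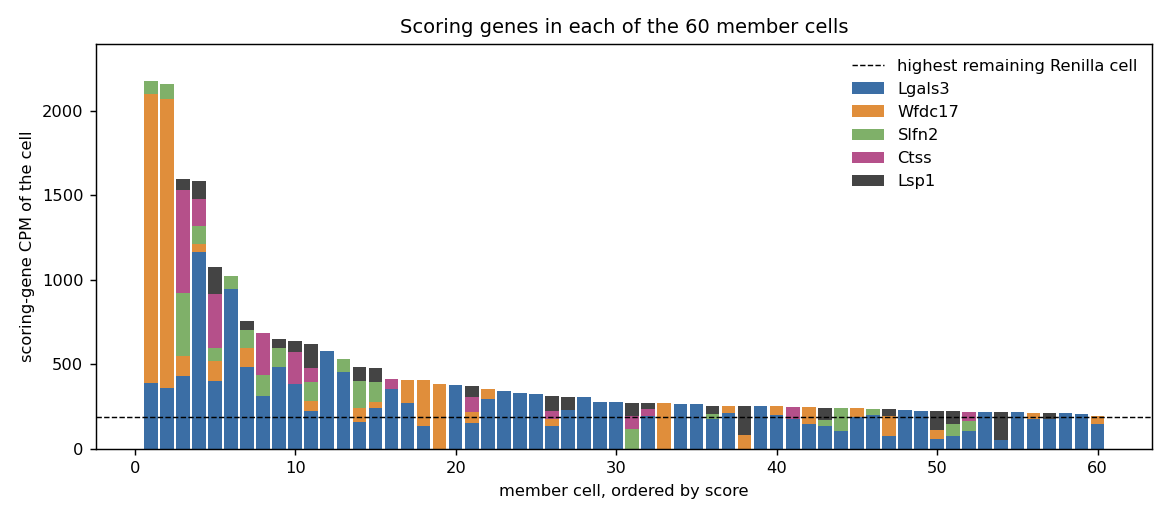
CPM of the 5 scoring genes (y axis) in each of the 60 members, ordered by score (x axis), stacked by gene; the dashed line is the highest remaining Renilla cell. The 2 highest members are filled mostly by Wfdc17, and the lowest members reach down to 197 CPM, just above the line at 191.

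Galectin-3 carried most of the score. Lgals3 (chromosome 14, 47367751 to 47386160, plus strand, mm10) had 328 UMIs in members and 470 in the remaining cells, or 260 and 35.7 CPM of the summed UMIs. It had a UMI in 56 of 60 members (93.3%) and in 274 of 548 remaining cells. It made up 59.3% of the members' scoring-gene UMIs, outnumbered the other 4 genes together in 39 members, and was the sole scoring gene in 17. A member was therefore often a cell in the upper range of a gene that many of the other cells also showed.

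The other scoring genes were seen in fewer cells and stood further apart. Slfn2 (chromosome 11, 83065112 to 83070678, plus strand) had 44 UMIs in 20 members (33.3% of members) and 8 UMIs in 7 remaining cells (1.28%). Ctss (chromosome 3, 95526786 to 95556403, plus strand) had 42 UMIs in 13 members (21.7%) and 23 UMIs in 18 remaining cells (3.28%). Wfdc17 (chromosome 11, 83703991 to 83706268, plus strand) had 98 UMIs in 25 members (41.7%) and 65 UMIs in 59 remaining cells (10.8%). Lsp1 (chromosome 7, 142460809 to 142494867, plus strand) had 41 UMIs in 22 members (36.7%) and 51 UMIs in 46 remaining cells (8.39%). Of the 98 Wfdc17 UMIs in members, the 2 highest-scoring members held 22 and 38. No cell type that should lack these genes was present in the library, so the part of free RNA in these shares was not measured.

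The members were uneven in how many scoring genes they showed. A single scoring gene had a UMI in 19 members, 2 in 19, 3 in 13, 4 in 5 and all 5 in 4 members. Among the remaining cells 218 showed none, 261 showed 1, 64 showed 2 and 5 showed 3. Thus no remaining cell showed 4 or more.

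To see whether the scoring genes went together, each was measured in cells chosen by the other 4 genes alone, a choice that did not use its own counts. Slfn2 was at 27.7 CPM in the 60 cells so chosen and at 1.29 CPM in the others, a log2 ratio of 4.42 (interval 3.55 to 5.35). Ctss was at 30.9 against 1.98 CPM, a log2 ratio of 3.97 (3.21 to 4.74). Wfdc17 was at 62.4 against 6.25 CPM, or 3.32 (2.86 to 3.78), with 38 of its 81 UMIs in 1 cell. Lsp1 was at 24.5 against 4.64 CPM, or 2.40 (1.73 to 3.05). Lgals3 was at 159 against 45.4 CPM, or 1.80 (1.57 to 2.04), and had a UMI in 66.7% of the chosen cells and 52.9% of the others. Each of the 5 genes was thus higher in cells picked by the other 4. The 5 genes were themselves chosen with earlier results of these data known, so this is a description and no independent check. Of the 60 cells picked without Lgals3, 34 were members, while 52 to 58 were members when one of the other genes was left out.

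The members carried less of some primary granule transcripts than the remaining cells, and more transcripts of monocytic surface proteins, inhibitory receptors and actin regulators. Over the 5941 genes that reached 200 UMIs in the kept Renilla cells, 49 were at least 2-fold higher in members (0.825%) and 61 at least 2-fold lower (1.03%), with a median log2 ratio of -0.09. Scaling by the median ratio in place of the totals gave 67 higher and 35 lower, which moves the share of higher calls to 65.7%, against 44.5%. The gene lists use a minimum of 50 UMIs, at which 8979 genes had a median of -0.08, with 213 at least 2-fold higher (2.37%) and 288 at least 2-fold lower (3.21%). The cells were chosen from the same library, so these counts and medians describe the 60 cells and carry no test. Some genes, among them Anxa1 and Camp, reached 200 UMIs only with the members' own UMIs. The count of higher genes is therefore partly fixed by the filter.

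**Figure D2:**
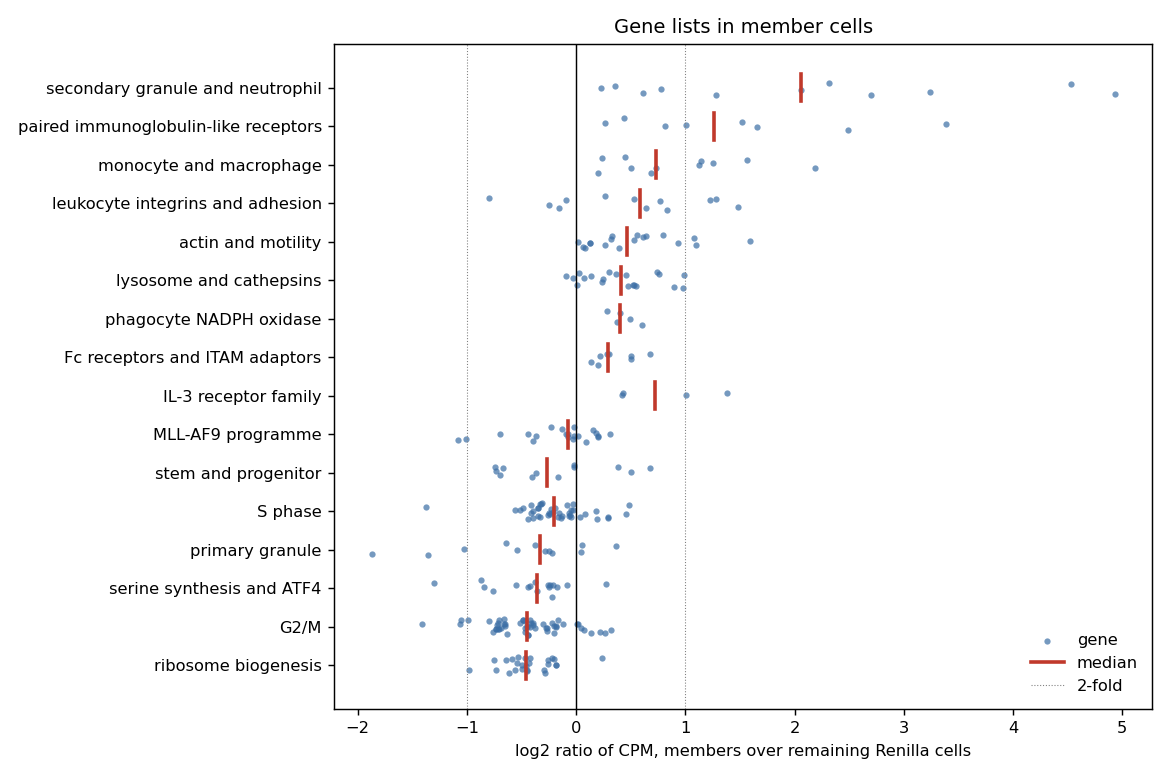
Log2 ratio of CPM, members over remaining Renilla cells (x axis), for each measured gene (points) of 16 gene lists (rows), with the list's median (red) and 2-fold marks (dotted). Primary granule, G2/M and ribosome biogenesis medians lie at -0.33, -0.45 and -0.46, and the monocyte and macrophage median at 0.73; the 4 highest genes of the neutrophil list, Ngp, Camp, S100a9 and S100a8, were found mostly in 4 members.

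Of 12 measured primary granule genes, 3 were at least 2-fold lower in members, none was 2-fold higher, and the median log2 ratio was -0.33. Mpo (chromosome 11, 87793581 to 87804413, plus strand), which encodes myeloperoxidase, ranged from 0 to 20.8 UMIs per 10000 in single members with a median of 1.40. In the remaining cells it ranged from 0 to 39.2 with a median of 4.74. The ranges overlapped, and members lay mostly in the lower part. Summed, it was at 251 CPM in members and 641 CPM in the remaining cells, a log2 ratio of -1.35 (-1.52 to -1.19). It had a UMI in 85.0% of members and 95.6% of the remaining cells.

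Cathepsin G followed the same order. Ctsg (chromosome 14, 56099881 to 56102574, minus strand) ranged from 0 to 18.9 UMIs per 10000 in members (median 1.47) and from 0 to 30.3 in the remaining cells (median 4.18). Its sums were 288 and 586 CPM, a log2 ratio of -1.02 (-1.18 to -0.87). Nkg7, a granule protein of cytotoxic and myeloid cells, was at 7.93 CPM in members and 29.0 CPM in the remaining cells, at -1.87 (-2.94 to -0.98), from 10 member UMIs. The other proteases differed by less than 2-fold. Elane, the neutrophil elastase gene, was at 1251 and 1819 CPM (-0.54), Prtn3 at 1351 and 1756 CPM (-0.38) and the membrane protein gene Ms4a3 at 373 and 582 CPM (-0.64). Thus the members still made much elastase and proteinase 3 transcript. Cebpe, a transcription factor of the granulocyte path, was level at 408 and 393 CPM (0.05). Ctsc, which encodes the protease that activates granule proteases, was slightly higher at 67.4 and 52.4 CPM (0.36).

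**Figure D3:**
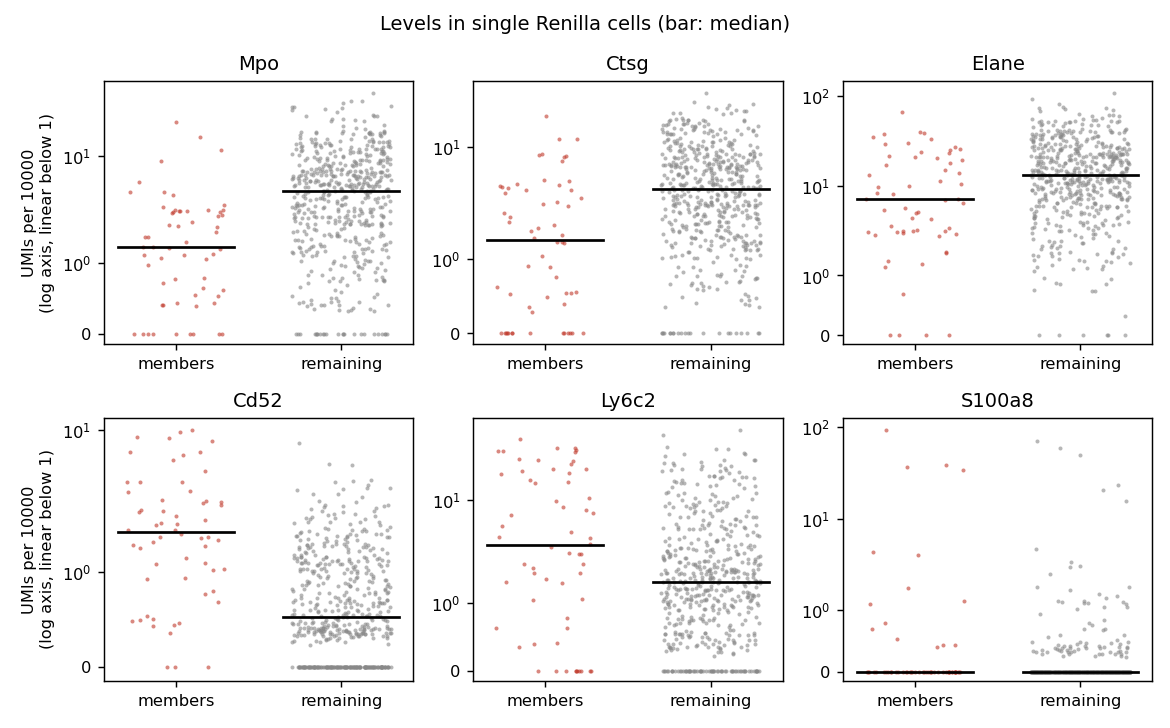
UMIs per 10000 UMIs of the cell (y axis, logarithmic above 1 and linear below) for 6 genes in the 60 members (left of each panel) and the 548 remaining Renilla cells (right); each point is a cell and the bar is the median. The medians of Mpo, Ctsg and Elane are lower in members (1.40 against 4.74 for Mpo), those of Cd52 and Ly6c2 higher (1.92 against 0.528 for Cd52), and S100a8 stands at 0 at the median of both groups with a few cells far above.

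Monocyte and macrophage genes were higher, and none of the 11 measured was lower. Their median log2 ratio was 0.73, 5 were at least 2-fold higher, and 13 further listed genes were below the minimum of 50 UMIs. Ly6c2 (chromosome 15, 75108158 to 75111970, minus strand), a surface protein of inflammatory monocytes and their precursors, ranged from 0 to 39.8 UMIs per 10000 in members (median 3.64) and from 0 to 49.0 in the remaining cells (median 1.58). Its sums were 938 and 392.3 CPM, or 1.26 (1.17 to 1.35). A UMI of it was found in 83.3% of members and 87.8% of the remaining cells, so the members with it held more of it. Its neighbour Ly6c1 is a near copy, so UMIs could have been divided between both genes.

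Other monocytic genes were at lower levels. Cd68, a lysosomal glycoprotein of macrophages, had 41 UMIs in members and 94 in the remaining cells, or 32.5 and 7.14 CPM (2.19, interval 1.62 to 2.73). The macrophage surface receptor gene Adgre1, which encodes F4/80, was at 80.1 and 36.6 CPM (1.13). Cd14, the co-receptor for bacterial lipopolysaccharide, was at 16.6 and 5.62 CPM (1.57), and Ms4a6d at 8.72 and 3.95 CPM (1.14). Csf1r, the receptor that macrophages need for survival, had 9 UMIs in 9 members and 17 UMIs in 17 remaining cells (2.47, interval 1.12 to 3.71). It lay below the minimum of the lists. Lyz2, the lysozyme gene of mature myeloid cells, was at 104 and 60.4 CPM (0.78).

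The name of maturing cells was met by the markers in part. Of 10 monocyte or macrophage markers 8 had a UMI in members, and their summed level ranged from 0 to 40.5 UMIs per 10000 (median 4.89) in members and from 0 to 49.7 (median 2.42) in the remaining cells. The tissue macrophage genes Mrc1 and C1qa had no UMI in members. Of 7 dendritic cell markers only Cd74 was seen, with 1 UMI, and H2-Aa, H2-Ab1, Itgax, Flt3, Zbtb46 and Siglech were at 0. Of 10 neutrophil markers 7 were seen, while Ltf, Cxcr2 and Retnlg, genes of late neutrophils, were at 0. Of the 6 mast cell or basophil markers 4 were at 0, namely Mcpt8, Fcer1a, Ms4a2 and Prss34. A count of 0 over all 60 members was read against a floor of 3 UMIs, or 2.38 CPM, so a low level is not excluded. The cells thus carried early monocytic transcripts together with progenitor ones, and no mature cell type is named for them.

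Some paired receptors of the immunoglobulin family, listed with a few lectins, were higher in members. Of 8 measured genes 5 were at least 2-fold higher and the median was 1.27, but 8 other listed genes were below 50 UMIs, and Pira2 and Pirb reached that minimum only with the members' own UMIs. The count and median are therefore partly fixed by the filter. Pira2 had 29 UMIs in members and 29 in the remaining cells, or 23 and 2.20 CPM (3.38, interval 2.59 to 4.18). Pirb, an inhibitory receptor for MHC class I, had 21 and 39 UMIs, or 16.6 and 2.96 CPM (2.49, interval 1.65 to 3.29). Pira2 and Pirb belong to a family of near copies, so the division of UMIs between family members is uncertain. Pilra, another inhibitory receptor, was at 23 and 7.30 CPM (1.66), and Clec4a2, a C-type lectin listed with them, at 51.5 and 17.9 CPM (1.52). Cd300a, an inhibitory receptor, was at 21.4 and 17.9 CPM (0.26, interval -0.37 to 0.84), and the lectin gene Clec12a stood at 0.44. Cd33, a sialic acid receptor of myeloid cells, was at 307 and 112 CPM (1.46, interval 1.29 to 1.62), with a UMI in 90.0% of members and 65.3% of the remaining cells.

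Genes of adhesion and movement differed on a smaller scale. Of 12 measured integrin and adhesion genes 8 were above 0 and 4 below, 3 were at least 2-fold higher, and the median was 0.59. Icam1, a ligand of leukocyte integrins, was the lowest with 8 UMIs in members and 145 in the remaining cells (-0.80, interval -2.04 to 0.22). Itgam, the CD11b integrin chain, was at 59.5 and 24.5 CPM (1.28), Itgal, the CD11a chain, at 11.9 and 4.26 CPM (1.48), and Itgb7 at 10.3 and 4.41 CPM (1.23). Of 18 actin and motility genes all were above 0, with a median of 0.46, and 3 were at least 2-fold higher. Anxa2, a membrane-binding protein, was at 64.2 and 21.3 CPM (1.59), the actin bundler Lcp1 at 149 and 69.8 CPM (1.09), and the actin capper Capg at 69 and 32.7 CPM (1.08). Actb itself was level at 0.02.

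The phagocyte machinery differed less. None of 20 measured lysosome and cathepsin genes was 2-fold apart, 18 were above 0, and the median was 0.41. Ctsh was at 99.1 and 49.9 CPM (0.99) and Grn, which encodes progranulin, at 143 and 72.4 CPM (0.98), while Lamp1 was level (-0.03). The 5 measured NADPH oxidase genes, which make the oxidative burst, had a median of 0.40, with Cyba at 1718 and 1221 CPM (0.49, interval 0.43 to 0.56). The 8 measured Fc receptor and ITAM adaptor genes had a median of 0.29. Tyrobp, the adaptor DAP12, had at least 10.0 UMIs per 10000 in every member (median 21.2) and at least 3.07 in every remaining cell (median 13.9).

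The 15 genes that stood highest by the interval bound nearest to 0 were a mixed group. The first 3, BC100530, Gm5483 and S100a8, lay mostly in the few cells described further on, and Anxa1, an annexin of mature myeloid cells that also stands in the neutrophil list, came next at 49.2 and 11.8 CPM (2.06). Cd52 (chromosome 4, 134082448 to 134095082, minus strand), a small glycoprotein of the leukocyte surface, ranged from 0 to 10.1 UMIs per 10000 in members (median 1.92) and from 0 to 8.16 in the remaining cells (median 0.528). It had a UMI in 57 of 60 members and 400 of 548 remaining cells, and its sums were 252 and 76.2 CPM (1.73, interval 1.54 to 1.91). Ypel3, a growth-suppressing gene, was at 175 and 49.7 CPM (1.82), and Cfp, the complement factor properdin, at 157 and 56.5 CPM (1.47). Pld4 was at 119 and 45.7 CPM (1.38), Cd24a at 175 and 69.5 CPM (1.33) and the histone gene Hist1h2bc at 65.0 and 20.4 CPM (1.67).

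The 15 genes that stood lowest by the same bound held few myeloid genes besides Mpo, Ctsg and Nkg7. Ssx2ip, a centrosome protein gene, had 6 UMIs in members and 280 in the remaining cells, or 4.76 and 21.3 CPM (-2.16, interval -3.62 to -1.02). Mnd1, a gene of homologous recombination in meiosis, was at 6.34 and 22.6 CPM (-1.84), and the tubulin gene Tubb6 at 3.97 and 15.8 CPM (-1.99). Genes of protein synthesis and mitochondrial import followed at smaller ratios. The ribosome assembly genes Tma16 and Tsr1 stood at -1.10 and -1.29, and Tomm40, the pore of the outer mitochondrial membrane, was at 96.0 and 171 CPM (-0.83, interval -1.11 to -0.57). Apex1, a DNA repair nuclease, was at 64.2 and 122 CPM (-0.93). The last pair lay under 2-fold but had enough UMIs for narrow intervals.

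In 4 members lay nearly all of the members' S100a8, S100a9, Camp and Ngp UMIs. Of 11 measured neutrophil and secondary granule genes 7 were at least 2-fold higher, with a median of 2.06, and 11 other listed genes were below 50 UMIs. Chil3, with 20 UMIs in members and 42 in the remaining cells, reached that minimum only with the members' own. The count and median are therefore partly fixed by the filter. After the values were seen, 4 members with at least 20 S100a8 UMIs (57, 43, 60 and 171) were looked at apart. The other 56 members had at most 5 S100a8 UMIs each. The 4 cells held 92.98% of the members' UMIs of S100a8 and 99.0% of those of S100a9, which together form calprotectin. They held 98.8% of the UMIs of the antimicrobial peptide gene Camp and 99.6% of those of the granule gene Ngp. Over the whole neutrophil list their share was smaller, 1115 of 1897 member UMIs (58.8%), and they held 6 of 10 Lcn2 UMIs and 16.1% of those of Anxa1. Hp, a haptoglobin gene of the list, was at 376 and 321 CPM (0.23) with a UMI in 57 members. The 4 cells also held 93.7% of BC100530 UMIs and 85.4% of Gm5483 UMIs, genes of the stefin A cluster whose near copies make the division of UMIs uncertain.

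These 4 cells were not the highest by score. Their best rank was 18, they had 3 to 6 scoring-gene UMIs, and none had a Slfn2 or Ctss UMI. Such cells made up 6.67% of members (exact binomial interval 1.85% to 16.2%) and 6 of 548 remaining cells (1.09%, interval 0.403% to 2.37%). With them left out on both sides, S100a8 was at 20.9 CPM in 56 members and 11.9 CPM in 542 remaining cells (0.81, interval 0.14 to 1.43). S100a9 then stood at -0.58, Camp at -1.08 and Ngp at -0.80, each with an interval that spans 0. The median of the neutrophil list moved to 0.67. Mpo (-1.30), Ly6c2 (1.20), Cd52 (1.64), Cd33 (1.39) and Anxa1 (1.91) stayed close to their values in all 60 members.

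Transcripts of the IL-3 receptor were somewhat higher in members. Csf2rb, a signalling chain common to several cytokine receptors, was at 65.0 and 32.3 CPM (1.01, interval 0.65 to 1.35), and Csf2rb2, the beta chain specific to IL-3 in mice, at 11.1 and 4.26 CPM (1.38, interval 0.42 to 2.25). These chains are near-identical copies, so their division is uncertain. The alpha chains Il3ra and Csf2ra stood at 0.43 and 0.42. In the JAK-STAT list, with 19 measured genes, 3 were at least 2-fold higher and 1 lower, at a median of 0.30. Cish, which STAT5 induces and which dampens its signal, was at 49.96 and 24.9 CPM (1.00). The kinase gene Jak2 was at 14.3 and 5.17 CPM (1.47) and the cytokine gene Osm at 11.1 and 3.42 CPM (1.70). Osm reached 50 UMIs only with the members' own UMIs, so the count of higher JAK-STAT genes is partly fixed by the filter. Bcl2, an anti-apoptotic gene, was lower at 15.1 and 30.3 CPM (-1.01).

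Chemokine genes were high in few cells. Ccl9 was at 34.9 and 8.66 CPM (2.01) with a UMI in 14 members, and Ccl3 at 21.4 and 2.58 CPM (3.05) with a UMI in 8 members, 1 of which held 40.7% of its member UMIs. Cpa3, a mast cell protease gene, was at 31.7 and 8.66 CPM (1.87), and 1 of the 9 members with it held 42.5% of its UMIs. Mcpt8, a protease gene of basophils, had no UMI in members and 71 UMIs in 58 remaining cells, at least 2.27-fold lower in members against the floor of 3 UMIs. Ifitm3, an interferon-induced gene, was at 98.3 and 39.4 CPM (1.32), and Btg2, an antiproliferative immediate early gene, at 16.7 and 4.33 CPM (1.94).

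The leukaemia programme did not stand apart as a whole. Of 21 measured MLL-AF9 programme genes none was 2-fold higher, 2 were 2-fold lower, and the median was -0.07, beside -0.08 over all genes. Hoxa9, a homeobox gene that MLL fusions keep active, was at 197 and 210 CPM (-0.09, interval -0.28 to 0.10), and its partner Meis1 at 106 and 108 CPM (-0.02, interval -0.28 to 0.24). The 2 lower genes were Hmgb3, a chromatin protein of progenitors, at 38.9 and 82.1 CPM (-1.08), and Bcl2. Of 12 measured stem and progenitor genes none was 2-fold apart and the median was -0.27. Cd34, a surface marker of progenitors, was higher in members at 507 and 317 CPM (0.68, interval 0.56 to 0.80), against the direction of most of that list. Kit, the stem cell factor receptor, stood at -0.67 (-1.76 to 0.25).

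Among 12 measured myeloid transcription factors 2 were at least 2-fold higher and 1 lower, with a median of 0.21. Irf8 (chromosome 8, 120736358 to 120756694, plus strand), which directs monocyte and dendritic cell fate, was at 92.0 and 35.3 CPM (1.38, interval 1.08 to 1.68), with a UMI in 45.0% of members and 30.8% of the remaining cells. Irf5, an interferon regulatory factor of macrophages, was at 23 and 6.92 CPM (1.73). Cebpa, needed for the step to granulocyte and monocyte progenitors, was lower at 8.72 and 20.6 CPM (-1.24), from 11 member UMIs. Spi1, the PU.1 gene, stood at 0.23 and Gfi1, a transcriptional repressor that acts in neutrophil development, at -0.13 (-0.69 to 0.39). Jmjd1c, the gene targeted in the other library, was at 142 and 140 CPM (0.02, interval -0.21 to 0.24). Of 18 measured JmjC and LSD1 demethylase genes only Kdm7a was 2-fold apart (1.01), and their median was 0.05.

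G1 calls were more frequent, and G2/M calls less frequent, among members than among the remaining cells. Each phase call rested on S and G2/M gene scores taken after each cell was thinned to 10000 UMIs, which left out 3 members and 26 remaining cells. G1 was called in 20 of 57 members (35.1%, interval 22.9% to 48.9%) and 72 of 522 remaining cells (13.8%, interval 10.95% to 17.1%). G2/M was called in 31.6% of members (19.9% to 45.2%) and 56.5% of the remaining cells (52.1% to 60.8%). The S share was 33.3% and 29.7%. Without thinning, G1 was called in 38.3% of members and 12.2% of the remaining cells. A score within 0.05 of a phase boundary was found in 5 members and 79 remaining cells. G1 was thus the call of a minority of members as well.

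**Figure D4:**
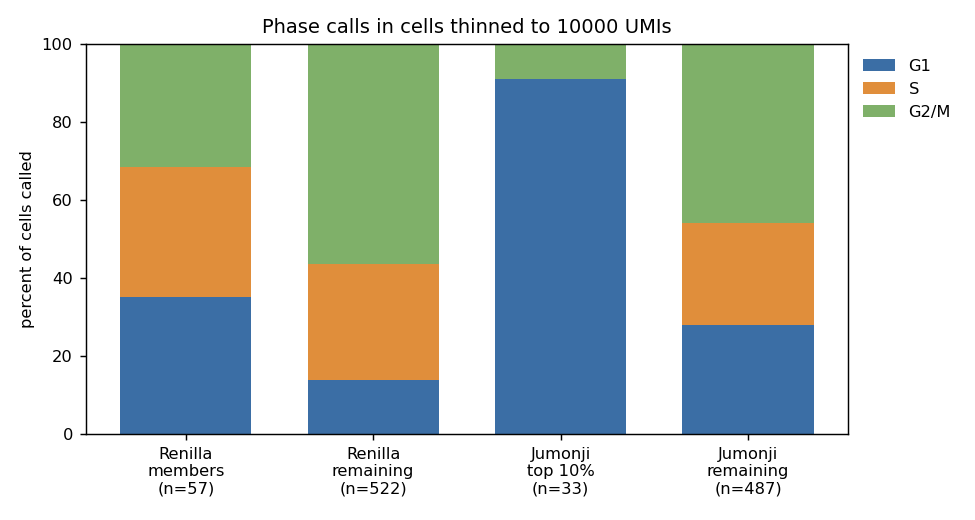
Share of cells called G1, S or G2/M (y axis, percent) after thinning to 10000 UMIs in the Renilla members, the remaining Renilla cells, the 10% of Jumonji cells with the highest score and the remaining Jumonji cells. G1 takes 35.1% of members and 13.8% of the remaining Renilla cells, and 90.9% and 27.9% of the corresponding Jumonji groups.

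Growth genes were mostly below 0. The S phase and G2/M lists are the ones that gave the phase calls, so their values are no separate observation. As a background for the counts below, the lower 2-fold call took in 3.21% of the 8979 genes that passed the list minimum. Their median of -0.08 is itself negative, so a count of genes below 0 is not by itself a measure of difference. Of 54 measured G2/M genes 3 were at least 2-fold lower and 46 were below 0, with a median of -0.45. The mitotic kinase gene Nek2 (-1.41) and the spindle gene Hmmr (-1.05) were among them. Of 42 S phase genes 1 was 2-fold lower and the median was -0.20. Of 26 ribosome biogenesis genes 25 were below 0, none 2-fold, with a median of -0.46, and of 17 serine synthesis and ATF4 genes 16 were below 0 with a median of -0.36. Aldh18a1, an enzyme of proline synthesis, was 1 of those, at 11.9 and 29.3 CPM (-1.30). The cell cycle inhibitor gene Cdkn1b was at 16.7 and 8.06 CPM (1.048, interval 0.30 to 1.73), from 21 member UMIs. Cdkn1a was at 144 and 73.9 CPM (0.97). A single member held 25.3% of the members' Cdkn1a UMIs, and without that cell the log2 ratio was 0.59. In contrast, 26 nuclear OXPHOS genes had a median of -0.08 and 15 glycolysis genes one of 0.05, close to that of all genes.

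The ratios were also taken among cells called G1 alone. In 20 members against 72 remaining cells called G1, the log2 ratio was -1.44 for Mpo, -1.54 for Ctsg and -1.049 for Ms4a3. In these G1 cells it was 1.59 for Cd52, 1.61 for Cd33, 2.21 for Ypel3, 1.13 for Ly6c2 and 1.08 for Csf2rb. Cd68 stood at only 0.10 in that comparison and Irf8 at 0.87.

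Clustering of the Renilla cells without the scoring, cell cycle, ribosomal protein and mitochondrial genes placed members in each of 6 clusters. Cluster 6, with 65 cells, held 22 of them, or 36.7% of all members, and members were 33.8% of its cells (22.6% to 46.6%). Its leading genes included Hist1h2bc, Ypel3, Anxa1, Igsf6 and Cfp, and 79.4% of its cells were called G1. Cluster 5, led by the mitotic genes Ube2c, Cenpf and Ccnb1, held 2 members among 89 cells. Clusters 1 to 4 held 11, 10, 10 and 5 members among 134, 108, 107 and 105 cells. The 4 cells rich in S100a8 were all in cluster 3, whose leading genes were Ngp, S100a9 and Camp. No cluster was given a cell type name.

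The other lists, beside a median of -0.08 over all genes, ran as follows. Of 13 BCL2 family genes 3 were at least 2-fold higher and 1 lower, with a median of 0.18. Of 17 G1 cyclins and inhibitors 13 were above 0, with a median of 0.38. The medians were 0.20 for 12 p53 targets, 0.27 for 9 MHC class I genes, 0.48 for 6 interferon genes, 0.44 for 6 immediate early genes and -0.10 for 12 mitochondrially encoded genes. Those of 3 chemokine, 6 mast cell and basophil, 3 dendritic and 2 eosinophil genes were 2.01, 0.95, 0.28 and 0.18. Of the 3 chemokine and cytokine genes Ccl3 and Osm reached 50 UMIs only with the members' own UMIs, so that median is largely fixed by the filter, and Ccl3 and Ccl9 are also in the mast cell and basophil list. The single measured stromal gene stood at -0.44. No erythroid, megakaryocyte or lymphoid gene of the lists reached 50 UMIs. Summed eosinophil markers were at 47.6 CPM in members and 34.2 CPM in the remaining cells, mast cell or basophil markers at 45.2 and 37.1 CPM, megakaryocyte markers at 10.3 and 6.61 CPM and erythroid markers at 7.14 and 2.58 CPM. Their part in the other results was not tested.

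Members that showed more of the scoring genes lay further from the remaining cells in some genes and lists, and not in others. Mpo was at 641 CPM in the remaining cells, 349 CPM in the 19 members with 1 scoring gene, 298 CPM in the 19 with 2 and 140 CPM in the 22 with 3 to 5. Ctsg ran in the same order at 586, 413, 327 and 162 CPM, and Elane at 1819, 1699, 1279 and 897 CPM. Cd52 ran upward at 76.2, 141, 204 and 375 CPM, and Anxa1 at 11.8, 13.9, 26.7 and 94.4 CPM. Ly6c2 and Irf8 did not follow at the first step. Ly6c2 was at 392.3, 260, 843 and 1520 CPM and Irf8 at 35.3, 22.2, 63.0 and 168 CPM, so members with a single scoring gene had less of both than the remaining cells. Cd34 was also higher at each step, at 317, 391, 460 and 632 CPM. Summed over lists, primary granule genes were lower at each step, at 11939, 10838, 9899 and 7103 CPM, and monocyte and macrophage genes ran at 733, 651, 1262 and 2355 CPM. G2/M genes ran at 6926, 5229, 6356 and 5205 CPM, S phase genes at 3400, 3946, 2775 and 2610 CPM and neutrophil genes at 541, 599, 2847 and 1038 CPM, with no steady order. Most of the members rich in S100a8 were in the group with 2 scoring genes. A single one of them held 730 neutrophil list UMIs. G1 was called in 13.8% of the remaining cells and in 29.4%, 27.8% and 45.5% of the 3 groups of members.

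**Figure D5:**
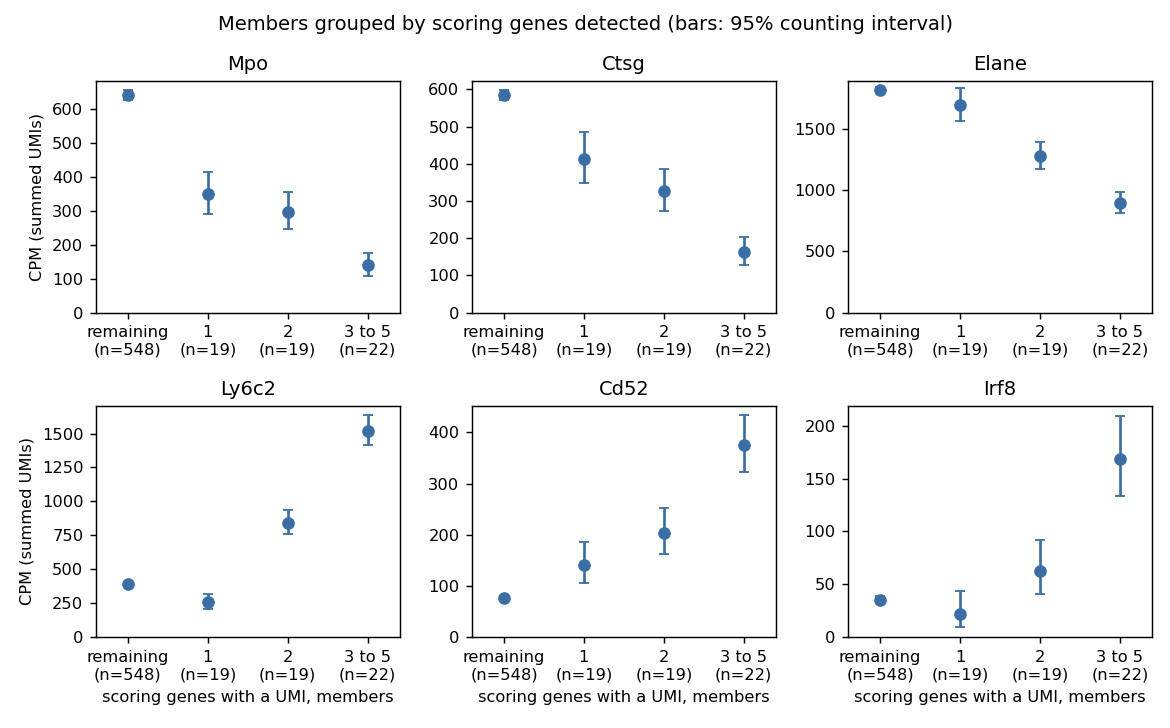
CPM from summed UMIs (y axes, from 0) of 6 genes in the remaining Renilla cells and in members with 1, 2 or 3 to 5 scoring genes detected (x axes, with numbers of cells); bars are exact Poisson 95% intervals. Mpo, Ctsg and Elane decline along the groups (641, 349, 298 and 140 CPM for Mpo), Cd52 climbs (76.2, 141, 204 and 375 CPM), and Ly6c2 and Irf8 climb only from the group with 2 genes.

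Set beside the Jumonji library, the members' score was common there. Of 575 kept Jumonji cells 431 reached the lowest member score (74.96%, interval 71.2% to 78.4%), against 60 of 608 Renilla cells (9.87%, the share that the rule itself fixed). In cells thinned to 10000 UMIs, 407 of 520 Jumonji cells (78.3%) and 94 of 579 Renilla cells (16.2%) reached a thinned limit of 200 CPM, which is 2 UMIs and therefore has many ties. The highest Renilla member, at 2179 CPM, lay below all of the 10% of Jumonji cells with the highest score, which had 3963 to 10626. The members' median of 275 also lay below that of the remaining 518 Jumonji cells, 409. The guide and the library cannot be told apart in this comparison.

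The same 10% rule within the Jumonji library drew a wider contrast. There 57 cells were set against 518, and of 5560 genes that reached 200 UMIs 379 were at least 2-fold higher (6.82%) and 983 at least 2-fold lower (17.7%). These 57 cells had a median of 10831 UMIs, under that of the members, and G1 was called in 30 of 33 that could be thinned (90.9%). They held 639102 UMIs in sum, against 1260946 in the members, so ratios there carry more counting error. Its part in the wider contrast was not tested. Over 5306 genes measured in both libraries, 47 were 2-fold higher in Renilla members and 266 in the Jumonji top cells, with 27 shared, which is 57.4% of the Renilla list and 10.2% of the Jumonji list. On the lower side 36 and 968 genes passed with 19 shared, or 52.8% and 1.96%. The Jumonji contrast by itself called 5.01% of the 5306 genes higher and 18.2% lower. The 52.8% therefore stands on a larger background than the 57.4%. The log2 ratio of Cd52 was 1.73 in Renilla members and 2.14 in the Jumonji top cells, that of Ypel3 1.82 in members and 2.49 in Jumonji top cells. That of Mpo was -1.35 in members and -3.52 in Jumonji top cells, and that of Ctsg -1.02 in members and -2.54 in Jumonji top cells. Ly6c2 and Cd33 stood at 1.26 and 1.46 in the Renilla members, and at 0.38 and 0.57 in the Jumonji top cells, a difference that was not tested.

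Beside the Jumonji library as a whole, the members held an intermediate level of some genes and a higher level of others. Mpo was at 251 CPM in members and 68.4 CPM over all kept Jumonji cells, and Ctsg at 288 CPM in members and 87.0 CPM in Jumonji cells. Cd52 was at 252 CPM in members and 481 CPM in Jumonji cells, and Pira2 at 23 CPM in members and 83.5 CPM in Jumonji cells. These 4 genes lay between the remaining Renilla cells and the Jumonji cells. By contrast Ly6c2 was at 938 CPM in members and 372 CPM in Jumonji cells, and Cd33 at 307 CPM in members and 257 CPM in Jumonji cells. Irf8 was similar, at 92.0 CPM in members and 98.3 CPM in Jumonji cells.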

How the data were processed

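The deposited values are raw UMI counts per gene and cell barcode for 651 Renilla and 652 Jumonji barcodes and 27998 gene identifiers. They come from 10x Chromium 3′ libraries (v2 kit), per the labels' protocols. The authors used Cell Ranger 1.3.1 with mm10, per the submitters' processing notes. Neither the annotation nor the cell-calling rule is stated in the sources used here.

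Kept barcodes had at least 500 genes and no more than 10% mitochondrial UMIs, which excluded 43 Renilla barcodes. UMIs were summed over members and over remaining cells and scaled to CPM. Log2 ratios carry exact conditional binomial 95% intervals, and shares of cells exact Clopper-Pearson intervals. Intervals of scores and CPM levels are exact Poisson intervals. All of them cover counting error only. A count of 0 was set to a floor of 3 UMIs, and no ratio was given where both sums were at or under it or where the floor alone would set the direction. Cells are not replicates, so nothing was tested and no p-value was computed.

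Genes were called by size, at least 2-fold with at least 200 UMIs, and lists (36, with 589 genes) used at least 50. The members and lists were chosen with earlier results of these data known. Named genes were the scoring genes, a set of myeloid, IL-3 receptor and leukaemia genes, the 15 higher (with a UMI in at least 15 members) and 15 lower genes ranked by the distance of their interval from 0, and in each list the 2 highest, the 2 lowest and all 2-fold genes. Where a symbol had several identifiers, the one with most Renilla UMIs was used.

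Scanpy 1.11.5 gave phases (after thinning to 10000 UMIs), Scrublet marks, which were kept and left out as an alternative, and clusters (leidenalg 0.10.2, 2000 variable genes, 30 components, 15 neighbours, resolution 0.6). Free RNA was not measured, since empty droplets were not used here. Coordinates are from GENCODE on mm10 (1-based). In simulated data for members against remaining cells, 194 of 197 tested 3-fold genes passed the 2-fold rule (98.5%). So did 4 of 5746 unchanged genes, and 96.1% of intervals held the true ratio. The simulated counts were Poisson sums for each group, without differences between cells. These rates therefore cover counting error only and do not extend to genes held by few cells.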

Additional observations from a re-analysis of the deposited data

Results flagged for a closer look

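In all, 6 genes were at least 2-fold apart in opposite directions in the high-score cells of the 2 libraries. Each pair gives the log2 ratio of Renilla members over remaining Renilla cells and then that of the top 10% of Jumonji cells over the remaining Jumonji cells. It was 2.70 and -2.14 for S100a8, 3.24 and -1.53 for S100a9, and 4.94 and -4.70 for Ngp. It was 3.52 and -2.23 for BC100530, 3.29 and -1.46 for Gm5483, and 1.36 and -2.97 for Stfa1. The difference between the libraries was not tested for any of them. In the Renilla members these UMIs lay mostly in 4 cells, which held 85.4% to 99.6% of them for 5 of the genes and 34.2% for Stfa1.

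A signal also appeared in barcodes that the comparisons left out for their mitochondrial share. Of 43 such Renilla barcodes 9 reached the lowest member score (20.9%, exact binomial interval 10.0% to 36.0%), against 9.87% of kept Renilla cells, where the rule fixed the share. The part of RNA quality in this share was not tested.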

How the results depend on the processing

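No paired analysis was possible because each condition had 1 library and nothing was tested, and leaving out a replicate was likewise not possible. Of 98 values of the main results under alternatives, 80 moved by less than their counting interval or, for counts, less than 1.5 times, and 18 moved further. Of 3669 values of other lists and single genes, 3274 stayed within that interval, 385 moved beyond it and 10 turned round. In G1 cells only, the medians of S phase (-0.20) and ribosome biogenesis (-0.46) were -1.15 and -1.13. The G1 calls themselves used the S phase genes. At a minimum of 1 UMI the median of the interferon list (0.48) was 2.13. Genes higher in members were 49 of 5941 tested (0.825%). They were 31 with scores from thinned cells (0.526%), 94 for the top 5% (1.58%) and 19 for the top 20% (0.32%). In G1 cells only they were 16 of 1249 tested (1.28%). They were 893 of 11046 at a minimum of 1 UMI (8.08%) and 26 of 3432 at 500 (0.758%). Genes lower in members were 61 (1.03%). They were 395 for the top 5% (6.65%), 4 for the top 20% (0.067%) and 35 with scaling by the median ratio (0.589%). They were 438 at a minimum of 1 UMI (3.97%) and 8 at 500 (0.233%). In G1 cells only they were 6.16% of the genes tested. With 30 cells in the top 5%, ratios rest on fewer UMIs, and the count minimum changes how many genes are counted; other causes were not tested. The primary granule median (-0.33) was -0.62 for the top 5%, -0.055 for the top 20%, -0.25 with median scaling and -0.70 in G1 cells. Jumonji cells at or above the limit (74.96%) were 66.1% for the top 5%, 86.8% for the top 20% and 70.8% without Wfdc17 in the score. The G1 share of members stayed between 25% and 46.4%, against 12.2% to 14.99% of the remaining cells. Some single genes turned round, each of them high in a few members. With scores from thinned cells Cpa3 was at -0.43. Without Lsp1 in the score Cpa3 was at -0.19, Camp at -3.57, Ngp at -3.27 and S100a9 at -0.64. For the top 5% Camp was at -1.82 and Ngp at -2.10. Without the cells rich in S100a8, a choice made after seeing the data, Camp was at -1.08, Ngp at -0.80 and S100a9 at -0.58. A member's median of 7 rule-gene UMIs limits how sharply single cells can be told apart at this depth.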
